A study of Mus musculus with 24 samples.

Results

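Quiescent wild type (WT) microglia were set against quiescent WT astrocytes, to see which genes tell these cultured cell types apart and how much RNA of one type shows in libraries of the other. The members were chosen by their labels as the libraries of WT cells that received no stimulus. They are 6 of the 24 samples of the series, 3 of microglia and 3 of astrocytes. The study grew glia of WT mice and of mice with a mutant SOD1 gene, a model of the motor neuron disease amyotrophic lateral sclerosis, and compared quiescent with activated cells, where microglia were activated with 50 ng/mL LPS, a bacterial cell wall product, and astrocytes with 3 ng/mL IL-1α, 30 ng/mL TNF-α and 400 ng/mL C1q. Its tables used here hold values of 21 libraries, and the other 3 samples were not analysed here. The astrocytes came from cortices at postnatal day 5. They were isolated by immunopanning, in which dishes coated with reagents for CD45, BSL I and O4 held back immune, endothelial and oligodendrocyte lineage cells and a dish coated with antibody to HepaCAM kept the astrocytes, and they grew in serum-free medium with 5 ng/mL HBEGF. The microglia came from whole brains at postnatal days 7 to 10. They were pulled out with magnetic beads against CD11b and grew in serum-free medium with 2 ng/mL TGF-β2, 100 ng/mL IL-34 and 1.5 µg/mL cholesterol. Cell type, age, brain region, isolation and medium differ together between these groups, so their effects cannot be told apart.

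Microglia are the resident macrophages of the brain, enter it from the yolk sac early in development, and clear debris, prune synapses and sense infection. Astrocytes arise from the neural tube, take up glutamate and potassium around synapses, supply lipids to neurons and shape the extracellular matrix. Because these lineages have separate origins, each keeps a set of genes that the other normally leaves silent, and reads of such genes in the wrong culture are a common measure of how pure a preparation is.

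The values are normalized counts, that is, the reads of a gene divided by a size factor that puts the libraries on a shared scale. The 6 libraries were scaled together by the median of their gene-by-gene ratios. The astrocyte libraries of replicates 1, 2 and 3 held 2016139, 3637657 and 9258718 reads, and the microglia libraries 10157188, 2550560 and 6940651. All values of a gene are given in that order of replicates, and where 2 sets of values are joined by against, the astrocytes come first. Depth differed within each cell type, and the shallowest and the deepest library belong to different types. Of 24411 genes in the tables, 16700 had at least 1 read in these libraries. Any 2 replicates of a cell type correlated at r = 0.967 to 0.991 on log2 values across genes, which are not independent replicates. The labels do not state whether the replicates came from separate cultures or animals, so the p-values measure the spread between these samples, which may be technical. Where intervals and lower bounds from reads are given, they cover counting error only. A bulk value cannot tell fewer cells of a type from less RNA per cell.

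The 2 cell types differed across much of the transcriptome. A gene was tested where its mean over the 6 libraries was at least 10 normalized counts, which 12064 genes met. A gene with a mean under 10 in 1 type met that limit only through the other type. Its direction was then not independent of the limit. A tested gene was called where limma gave an adjusted p-value under 0.001 and the difference was more than 2-fold. Of the genes tested, 5702 were called (47.3%), with 2716 (22.5%) higher in microglia and 2986 (24.8%) higher in astrocytes. The log2 fold change is microglia minus astrocytes throughout, so a negative value is a gene higher in astrocytes. Its median over all genes tested was -0.04 and its SD 2.35. In 9824 genes (81.4%) the lowest library of one type stood above the highest of the other. More than 10-fold separated the types in 868 genes higher in microglia and 1307 genes higher in astrocytes, and more than 100-fold in 28 and 5 genes. Only 1778 genes (14.7%) had a 95% confidence interval that lay within 1.5-fold of no difference. Mean log2 levels of the cell types correlated at r = 0.510 across genes, against at least 0.967 between replicates. Scaling by the total count in place of the median ratio moved the median log2 fold change by -0.58. With that scaling 1817 genes were called higher in microglia and 4527 higher in astrocytes.

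**Figure D1:**
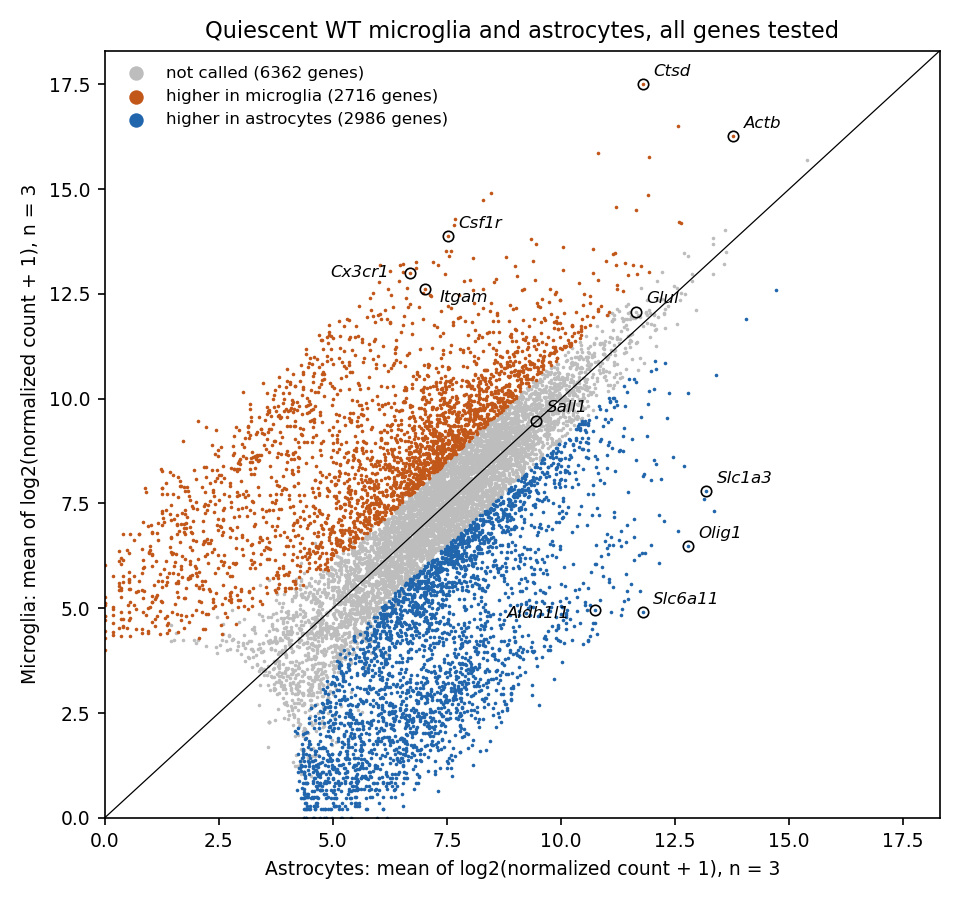
Mean of log2(normalized count + 1) of each of the 12064 genes tested in quiescent WT astrocytes (horizontal) and quiescent WT microglia (vertical), n = 3 libraries each, with called genes in color. Cx3cr1, Itgam and Csf1r sit far above the diagonal, Aldh1l1, Slc1a3 and Slc6a11 far below it, and Sall1 and Glul near it.

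The 4 genes that define the cell types separated the libraries without overlap. *Cx3cr1* codes for the receptor of fractalkine, which neurons present to microglia, and lies at chr9:119901616-120069879 in the GENCODE M21 annotation of GRCm38. Its normalized counts were 69.0, 101 and 150.4 in astrocyte replicates 1, 2 and 3 and 7821, 8857 and 8084 in the microglia replicates. All 3 microglia libraries were high and all 3 astrocyte libraries low but above 0. The log2 fold change was 6.33 ± 0.22 (SE), adjusted p = 1.2e-09. *Itgam* codes for CD11b, the integrin chain that the magnetic beads bind, and lies at chr7:128062640-128118491. It had 103, 123 and 168 counts in the astrocyte libraries and 6132, 6396 and 6187 in the microglia libraries. Again the groups lay far apart, with a log2 fold change of 5.59 ± 0.15 and adjusted p = 3.0e-10.

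*Aldh1l1*, at chr6:90486427-90600203, codes for an enzyme of folate metabolism that is used as a general marker of astrocytes. The astrocyte libraries held 1406, 1708 and 2062 counts of it and the microglia libraries 28.3, 32.5 and 30.2. Every astrocyte library was high and every microglia library low, at a log2 fold change of -5.77 ± 0.14 and adjusted p = 1.8e-10. *Slc1a3*, at chr15:8634124-8710764, codes for the glutamate transporter GLAST. Its counts were 8295, 9322 and 10326 in astrocytes and 253, 195 and 215 in microglia. The microglia libraries lay far under the lowest astrocyte library, and the log2 fold change was -5.39 ± 0.12 with adjusted p = 1.2e-10. Read as a share of the cell type that makes them, the means in the other type were 1.29% for *Cx3cr1*, 2.10% for *Itgam*, 1.76% for *Aldh1l1* and 2.37% for *Slc1a3*.

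**Figure D2:**
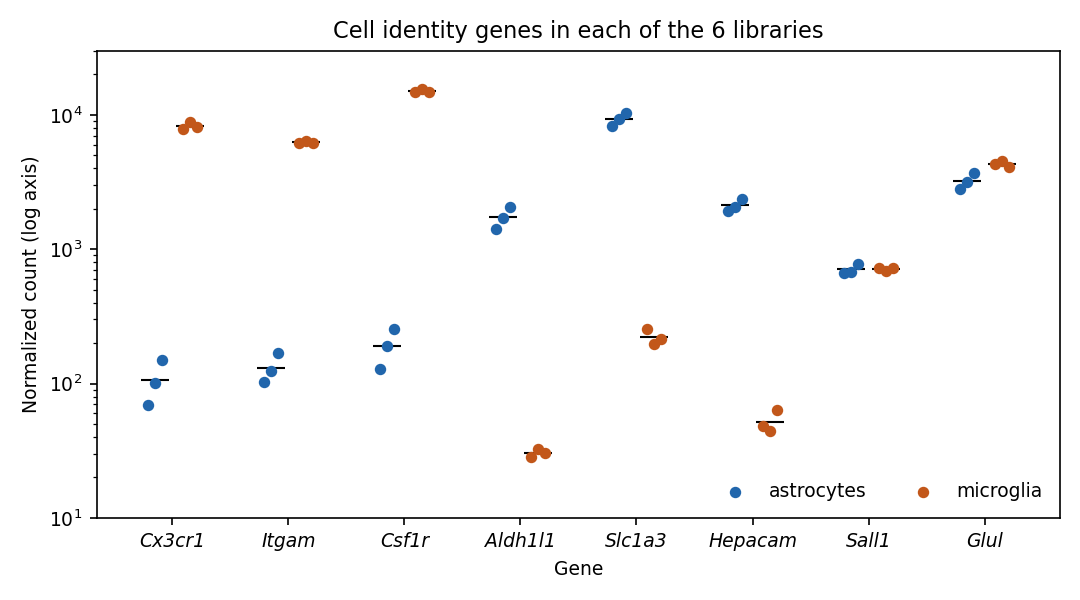
Normalized counts (log axis) of 8 identity genes in the 3 astrocyte and 3 microglia libraries, with each library as a point and the mean of a group as a bar. The groups stand apart for 6 of the genes and for Glul by little, and overlap for Sall1.

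The antigens of the isolation steps, like the markers, separated the groups. The list of antigens and probes of the study holds the 4 markers, *Ptprc*, *Hepacam*, *C3* and the reference genes *Gapdh* and *Rplp0*, 9 genes in all and all tested, of which 4 were called higher in microglia and 3 higher in astrocytes, with 8 not overlapping and a median log2 fold change of 1.46. The shares over all genes tested were 22.5% higher in microglia, 24.8% higher in astrocytes and 81.4% not overlapping. *Hepacam* codes for the adhesion protein on which the astrocytes were kept, and had 1907, 2074 and 2373 counts in astrocytes and 48.1, 44.1 and 63.0 in microglia. It was high in all astrocyte libraries only, with a log2 fold change of -5.34 and adjusted p = 2.6e-10. *Ptprc* codes for CD45, the surface protein by which immune cells were held back from the astrocytes, and had 35.4, 51.0 and 65.1 counts in astrocytes against 2753, 2739 and 2701 in microglia. Every astrocyte library had a low reading of it, at 1.85% of the microglia mean. *C3*, a complement component that marks reactive astrocytes, was low in all 6 libraries, at 14.9, 21.2 and 24.2 in astrocytes and 63.4, 37.2 and 73.9 in microglia. The groups did not overlap, but the gene was not called (log2 fold change 1.46 ± 0.30, adjusted p = 1.1e-03), while DESeq2, edgeR and several other settings did call it.

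The microglia marker list was nearly all on one side. It holds 28 genes, of which 27 were tested, 26 were called higher in microglia and the same 26 did not overlap. The median log2 fold change of those tested was 6.03, against -0.04 over all genes tested. Among all genes tested, 22.5% were called higher in microglia and 81.4% did not overlap. *Csf1r* codes for the receptor on which microglial survival depends, and had 129, 189 and 253 counts in astrocytes and 14671, 15476 and 14903 in microglia. *Laptm5*, a lysosomal membrane protein of blood-derived cells, had 129, 224 and 284 against 16738, 20399 and 17486. Each was high in every microglia library and at under 2% of that level in the astrocyte mean. Their log2 fold changes were 6.35 and 6.48. Markers of the resting state separated the groups too. *P2ry12*, a receptor for ADP that guides microglial processes, had 9.32, 18.0 and 19.8 in astrocytes and 425, 474 and 395 in microglia. *Tmem119*, a membrane protein of resident microglia, had 13.1, 14.9 and 41.8 against 2199, 2495 and 2251. Both were called, with no overlap, at log2 fold changes of 4.75 and 6.77.

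*Sall1* was the marker that did not separate the groups. It codes for a zinc finger factor that sets microglia apart from other macrophages and is also made by neural progenitors. Its counts were 669, 675 and 773 in astrocytes and 721, 688 and 719 in microglia. The libraries of the 2 types lay in one range and overlapped, with a log2 fold change of 0.01 ± 0.09 (adjusted p = 9.3e-01) that total count scaling turned to -0.57. *Slc2a5*, a fructose transporter, had 0, 0 and 1 reads in the astrocyte libraries and 2, 2 and 0 in the microglia libraries, too few to test.

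Astrocyte markers separated the groups too, with a smaller median difference, and 2 of those tested were not called. The list holds 28 genes, of which 25 were tested and 23 called, all higher in astrocytes. The 25 did not overlap, among them *Glul*, for which microglia were the higher type, and the median log2 fold change was -4.86. Shares over all genes tested were 24.8% called higher in astrocytes and 81.4% not overlapping. *Bcan*, the matrix proteoglycan brevican, had 2855, 2907 and 2782 counts in astrocytes and 39.6, 32.5 and 37.0 in microglia. *Sparcl1*, a secreted protein that acts on synapses, had 1799, 2192 and 2892 against 88.8, 95.3 and 87.4. The pair was high in each astrocyte library and low in each microglia library, with log2 fold changes of -6.26 and -4.62. *Gfap*, an intermediate filament protein that rises in reactive astrocytes, had 1389, 1361 and 2847 in astrocytes and 324, 325 and 344 in microglia. It was called at -2.40, yet its microglia level was 17.7% of the astrocyte level, the highest share among the called markers.

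*Glul* and *Ndrg2* were tested and not called. *Glul* codes for glutamine synthetase, which turns glutamate into glutamine, and had 2788, 3176 and 3687 counts in astrocytes and 4324, 4539.8 and 4109 in microglia. The microglia libraries were all above the astrocyte libraries by less than 2-fold, at a log2 fold change of 0.44 ± 0.12, adjusted p = 7.4e-03, which total count scaling turned to -0.15. *Ndrg2*, a cytoplasmic protein of the N-myc downstream regulated family, had 867, 854 and 1163 in astrocytes and 447, 467 and 538 in microglia. Its log2 fold change of -0.98 was just short of 2-fold, with adjusted p = 4.9e-05, and it was called higher in astrocytes at -1.02 with TMM scaling and -1.56 with total count scaling. The 3 markers not tested had few reads. *Gjb6*, the gap junction protein connexin 30, had 1 read in all 6 libraries. *Slc7a10*, a serine and glycine transporter, had 3, 3 and 20 reads in astrocytes and 0 in microglia, or at least 7.83-fold more in astrocytes if 3 reads are allowed for the group at 0. *S100b*, a calcium-binding protein, had 11.2, 17.0 and 15.4 in astrocytes and 2.26, 0 and 4.20 in microglia, under the limit for testing.

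Lineage transcription factors separated the cell types as well. For comparison, 22.5% of all genes tested were called higher in microglia and 81.4% did not overlap. Of 12 microglial factors, 11 were tested and 10 were called, all higher in microglia and without overlap, with *Sall1* the one not called and a median log2 fold change of 5.68. *Spi1* codes for PU.1, without which no microglia form, and had 18.6, 32.9 and 49.7 counts in astrocytes and 2863, 2688 and 2822 in microglia. *Irf8*, its partner in myeloid cells, had 29.8, 35.0 and 60.7 against 3775, 3868 and 3709. Both genes were high in all microglia libraries, with log2 fold changes of 6.43 and 6.53. *Tfec*, a relative of the lysosomal regulator TFEB, was too low to test at 0, 2.12 and 0.440 against 12.4, 11.6 and 13.4.

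All 15 factors of the astrocyte and neural list were tested, called higher in astrocytes and free of overlap, with a median log2 fold change of -4.93. Over all genes tested these shares were 24.8% called higher in astrocytes and 81.4% free of overlap. *Sox9*, a factor needed for neural tube cells to turn to glia, had 861, 1031 and 1325 counts in astrocytes and 24.3, 23.2 and 28.6 in microglia. *Nfib*, of the nuclear factor I family that drives gliogenesis, had 2301, 2742 and 3341 against 55.4, 60.4 and 50.4. *Sox2*, a factor of neural stem cells and astrocytes, had 908, 926 and 1028 against 23.2, 16.3 and 25.2. Each was high in the astrocyte libraries alone, at log2 fold changes of -5.33, -5.62 and -5.42.

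Reads of microglia markers were present in every astrocyte library at a small share of the level in microglia. The 28 microglia markers summed to 138981, 151408 and 140355 normalized counts in the microglia libraries and to 2027, 2755 and 3414 in astrocyte replicates 1, 2 and 3. Against the mean of microglia, 143581, that is 1.41%, 1.92% and 2.38%. *Sall1*, which the cell types share, was the most abundant of them in astrocytes and made up 33.0%, 24.5% and 22.6% of the sum, while *Laptm5* led in microglia. Taking the 26 called markers one by one, the astrocyte mean was 1.44% of the microglia mean at the median, from 0.942% for *Trem2*, a lipid receptor, to 9.46% for *Siglech*, a lectin whose call was lost in 6 of the other settings. It was under 2% for 19 of 26 and under 3% for 24. The share was lowest in astrocyte replicate 1 for 26 of the 26 genes and highest in replicate 3 for 21 of them, with medians of 0.846%, 1.42% and 1.89% in replicates 1, 2 and 3. Astrocyte replicate 3 also stood apart in some other measures. It was the deepest of the astrocyte libraries, and ribosomal protein genes took up 3.25% of it, against 5.08% and 4.32% of replicates 1 and 2. The chi-square per degree of freedom between the reads of 2 libraries, which is near 1 for counting error alone, was 8.97 and 6.50 between it and replicates 1 and 2, and 2.03 between those. By correlation on log2 values replicate 3 did not stand apart. Its r was 0.967 and 0.983 with replicates 1 and 2, against 0.978 between those. Of the markers that define microglia, *Cx3cr1*, *Itgam*, *Csf1r* and *Ptprc* had reads in all 3 astrocyte libraries. At 0 reads were *Siglech*, *Gpr34*, a lipid receptor, and *Slc2a5* in astrocyte replicate 1 and *Slc2a5* in replicate 2, and none of the 28 in replicate 3. The cause was not tested.

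In the other direction the sum of markers was dominated by 1 gene. The 28 astrocyte markers summed to 41315, 45407 and 54117 in the astrocyte libraries and to 6659, 6656 and 6518 in the microglia libraries, which is 14.2%, 14.2% and 13.9% of the astrocyte mean of 46946.5. *Glul* alone made up 64.9%, 68.2% and 63.0% of the sum in microglia. Over the 23 called markers the microglia mean was 2.84% of the astrocyte mean at the median, from 0.276% for *Ntsr2*, a neurotensin receptor, to 17.7% for *Gfap*. It was under 3% for 12 of 23 and over 5% for 6. *Aldh1l1*, *Slc1a3*, *Hepacam* and *Aqp4* all had reads in the 3 microglia libraries. *Aqp4* codes for the water channel of astrocyte endfeet, and had 546, 648 and 834 counts in astrocytes and 50.4, 48.8 and 46.2 in microglia, at a steady low level in all 3. At 0 reads were *Gjb6* and *Slc7a10* in all 3 microglia libraries, *Ntsr2* and *Cldn10*, a claudin of cell junctions, in replicates 2 and 3, and *S100b* in replicate 2. What made these reads was not tested.

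**Figure D3:**
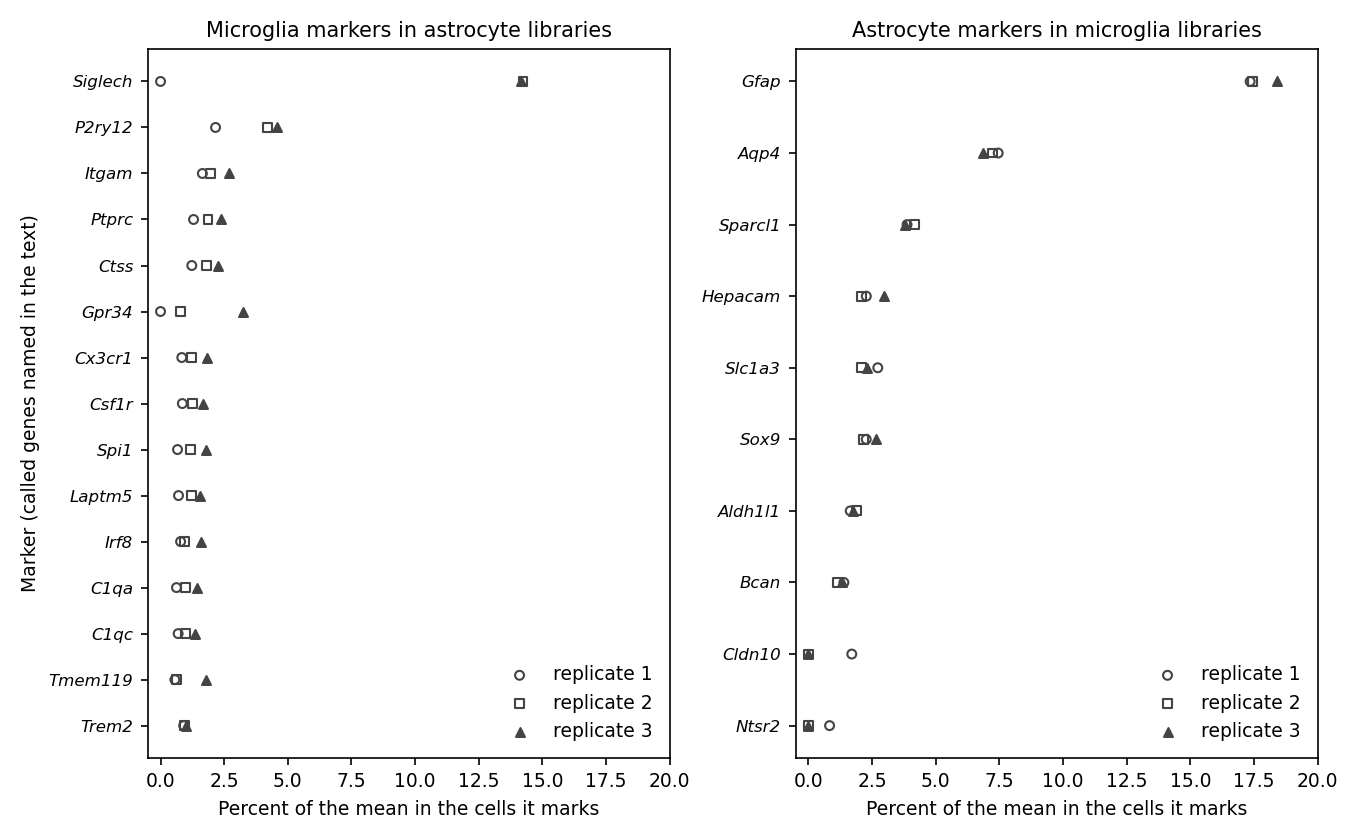
Share of each called marker that the text names in libraries of the opposite cell type, as a percentage of its mean in the cells it marks, with 1 symbol for each replicate. Siglech has the highest mean share in astrocytes (9.46%) and Gfap in microglia (17.7%).

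Almost no abundant gene of one cell type was missing from the other. Of 697 genes called higher in microglia with a mean there of at least 1000, a limit chosen after the values were seen, none had 0 reads across the astrocyte libraries. The lowest share was 0.713%, for *Slc16a3*, a lactate transporter, and only 13 genes were under 1%. Of 245 genes called higher in astrocytes at that level, again none had 0 reads in microglia, the lowest share was 0.818%, for *Slc6a11*, and 1 gene was under 1%. The median shares of all these genes were 16.2% and 14.4%. In the other libraries of the study, with all 21 scaled together, the microglia-marker sum of activated or mutant astrocytes was 1.43% to 2.85% of the mean of quiescent WT microglia. In microglia treated with LPS, astrocyte markers summed to 5.88% to 7.98% of the mean of quiescent WT astrocytes, against 13.4% to 13.8% in the quiescent microglia on that scale. Single markers did not all fall with that sum. In WT microglia treated with LPS, mean *Aldh1l1* was 37.1 against 31.7 in the quiescent ones, *Slc1a3* 245 against 231 and *Hepacam* 47.5 against 54.1. In mutant microglia treated with LPS these means were 30.5, 222 and 42.1.

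Several oligodendrocyte lineage genes were called higher in the astrocyte libraries. The list holds 15 genes, with 10 tested and 5 too low to test, among them the myelin genes *Mog*, *Mag*, *Mobp* and *Opalin*. It had 7 called higher in astrocytes, 2 called higher in microglia and a median log2 fold change of -4.01. Among all genes tested, 24.8% were called higher in astrocytes and 22.5% higher in microglia. *Olig1*, a factor of oligodendrocyte precursors, had 6966, 7020.0 and 7032 counts in astrocytes and 97.9, 79.0 and 89.9 in microglia. *Olig2*, its neighbor and a factor that some astrocytes also make, had 3446, 3401 and 3287 against 50.4, 30.2 and 47.9. Both were high and even across the astrocyte libraries, at log2 fold changes of -6.29 and -6.30. Per kilobase of exon, the astrocyte mean of *Olig1* was 3241 against 1091 for *Slc1a3*. The length joins all annotated exons of a gene, which can exceed the transcript that was made, so the size of this gap depends on that choice. *Pdgfra*, the growth factor receptor of precursors, had 345, 271 and 438 in astrocytes and 10.7, 9.29 and 10.9 in microglia, called at -4.93. *Gpr17*, a receptor of committed precursors, had 198, 168 and 214 against 1.70, 0 and 3.36, called at -6.41. Only its astrocyte values brought *Gpr17* over the limit for testing. *Cnp*, an enzyme of myelin membranes, had 526, 524 and 575 in astrocytes and 163, 169.6 and 154 in microglia, called at -1.73.

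*Cspg4* and *Mbp* ran the other way within that list. *Cspg4* codes for the NG2 proteoglycan of precursors and pericytes, and had 160.4, 261 and 301 counts in astrocytes and 6910.4, 7337 and 7271 in microglia. *Mbp*, which codes for myelin basic protein and for golli proteins of immune cells, had 26.1, 35.0 and 32.5 against 493, 497 and 493. Both were high in all microglia libraries, at log2 fold changes of 4.94 and 3.95. The list summed to 11862, 11837 and 12123 in astrocytes, where *Olig1* was the most abundant, and to 7763, 8160 and 8106 in microglia, where *Cspg4* made up 89.0%, 89.9% and 89.7%. The astrocytes had passed an O4 dish, which removes cells of the oligodendrocyte lineage, and the source of these reads was not tested.

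The neuron markers that reached the limit for testing were higher in astrocytes. Of 15 genes, 5 were tested and 5 called, with a median log2 fold change of -4.48. Called higher in astrocytes were 24.8% of all genes tested. *Tubb3*, *Dcx* and *Gad1* were below 10 in every microglia library, so only their astrocyte values brought them over the limit for testing. Their direction was therefore not independent of that limit. *Map2*, a microtubule protein of dendrites, had 3477, 3697 and 2983 counts in astrocytes and 78.6, 72.0 and 77.3 in microglia, and made up 94.4%, 94.6% and 93.2% of the list's sum of 3683, 3909 and 3199 in astrocytes. *Tubb3*, a tubulin of young neurons, had 39.2, 42.5 and 40.9 in astrocytes and 6.79, 2.32 and 5.88 in microglia. *Dcx*, made by migrating neurons, had 35.4, 47.8 and 47.9 against 4.53, 2.32 and 2.52. All astrocyte libraries lay above all microglia libraries for each, at log2 fold changes of -5.45, -2.89 and -3.46, of which quantile normalization ended the call of *Tubb3*. The list summed to 112, 97.6 and 102 in microglia. *Gad1*, the enzyme of GABA synthesis, had 37.3, 40.3 and 22.0 in astrocytes and 2.26, 0 and 0 in microglia. The cause of these readings was not tested.

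Few markers of vessels and of the ventricle wall reached the limit for testing. Of 12 endothelial genes 3 were tested and called higher in microglia, as were 22.5% of all genes tested. The median log2 fold change of the 3 was 3.95. The list summed to 44.7, 45.7 and 64.6 in astrocytes and 484, 565 and 549 in microglia. *Flt1*, a receptor of vascular growth factor that macrophages also make, was the most abundant in both, at 29.8, 31.9 and 42.2 against 268, 339 and 318. Of 13 pericyte and fibroblast genes 6 were tested, 2 were called higher in astrocytes, 4 were not called and 5 did not overlap, against 24.8% higher in astrocytes and 81.4% not overlapping over all genes tested, with a median log2 fold change of -1.46 and sums of 694, 831 and 908 in astrocytes and 255, 246 and 234 in microglia. *Tagln*, a smooth muscle protein, led in astrocytes at 257, 338 and 336, against 72.4, 81.3 and 84.8 in microglia. *Notch3*, a receptor of pericytes and of neural progenitors, had 205, 229 and 229.6 against 6.79, 4.65 and 7.56. Each of these groups of values stood apart between the cell types. Of 6 ependymal genes only *Foxj1*, the factor that switches on motile cilia, was tested. It had 209, 248 and 307 in astrocytes and 3.96, 4.65 and 10.1 in microglia, and was called at -5.22. Only their astrocyte values brought *Foxj1* and *Notch3* over the limit for testing, so their direction was not independent of it.

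Markers of border macrophages and of blood cells gave unlike sums. The 11 border macrophage and monocyte genes summed to 7.46, 9.56 and 9.67 in astrocytes and to 239, 260.2 and 249 in microglia. Of these, 2 were tested and called higher in microglia, as were 22.5% of all genes tested, with a median log2 fold change of 4.46. Only their microglia values brought these 2 over the limit for testing, so their direction was not independent of that limit. *Ms4a7*, a membrane protein of border macrophages, led at 3.73, 6.37 and 7.48 in astrocytes and 203, 214 and 193 in microglia. *Mrc1*, the mannose receptor, had 0, 1.06 and 0 against 11.3, 30.2 and 20.2. The 10 neutrophil and lymphocyte genes summed to 1.86, 0 and 1.32 in astrocytes and 2.83, 6.97 and 3.36 in microglia, and none was tested. Whether any of these sums came from a second kind of cell was not tested.

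Among the called genes with the largest log2 fold changes, an order that depends on the count of 1 added before the log, were further genes of each type. On the microglia side, *Rbm47*, an RNA-binding protein, had 0, 4.25 and 12.3 counts in astrocytes and 663, 690.0 and 776 in microglia, at a log2 fold change of 7.43. *L1cam*, an adhesion molecule better known from axons, had 0, 4.25 and 5.72 against 528, 462 and 533, at 7.27. *Lgals3*, a galectin of phagocytes, had 42.9, 69.0 and 89.3 against 9071, 9663 and 9250.3, at 7.16. All 3 were high in every microglia library, and *Lgals3* was the only one of them that was clearly above 0 in all astrocyte libraries. On the astrocyte side, *Slc6a11*, the GABA transporter GAT-3, had 3183, 3598 and 3857 in astrocytes and 26.6, 30.2 and 30.2 in microglia, at -6.88. *Fzd9*, a Wnt receptor, had 296, 303 and 214 against 2.83, 0 and 2.52, at -6.82. These were high in every astrocyte library and low in every microglia library. *Rbm47*, *L1cam* and *Fzd9* met the limit for testing only through the type in which they were high.

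A number of called genes had almost no reads in the lower cell type. At most 3 reads stood in each astrocyte library for 98 genes higher in microglia, and in each microglia library for 294 genes higher in astrocytes. No read at all stood in the lower group for 11 and 16 genes. *Galnt3*, an enzyme that starts mucin sugar chains, had 0, 0 and 3 reads in astrocytes, and its rate in microglia was 129 times as high, with an exact 95% counting interval of 43.8 to 629. *Smagp*, a small membrane glycoprotein, had 1, 1 and 3 reads in astrocytes and a ratio of 118, with an interval of 50.1 to 364. *Apcdd1*, an inhibitor of Wnt signals, had 3, 1 and 0 reads in microglia, and its rate in astrocytes was 126 times as high, with an interval of 48.8 to 463. These genes were low in every library of the lower type, so their ratios rest on few reads. They were picked for having so few reads there, and the intervals do not allow for that choice.

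Per kilobase of exon, which allows a rough comparison of levels between genes, the cell types had different genes in the lead. *Ctsd*, the lysosomal protease cathepsin D, led in microglia with a mean of 79015 normalized counts per kilobase, followed by *Ftl1*, a ferritin chain, at 41463 and *Actb*, cytoplasmic actin, at 29302. In astrocytes *Eef1a1*, an elongation factor of protein synthesis, led with 17202 per kilobase, followed by *Tuba1a*, a tubulin, at 5939 and *Ckb*, brain creatine kinase, at 5847, and *Actb* at 5252. *Ctsd* had 2892, 3601 and 4310.1 counts in astrocytes and 179905, 191913 and 185474 in microglia. *Eef1a1* had 43465, 44271 and 40919 against 49993, 57405 and 52896. The first was high in microglia alone and called at a log2 fold change of 5.71, and the second was not called, at 0.32, which total count scaling turned to -0.27 and quantile normalization to a call at -1.76. The 10 most abundant genes took up 10.6% to 11.4% of each microglia library and 4.31% to 4.44% of each astrocyte library.

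Of the factors by which microglia activate astrocytes, *C1qa* and *Tnf* were called higher in microglia and *Il1a* was not. The list of activating factors and their receptors holds 15 genes, with 14 tested and 14 not overlapping, 8 called higher in microglia, 1 higher in astrocytes and a median log2 fold change of 1.90. Over all genes tested, 81.4% did not overlap, 22.5% were called higher in microglia and 24.8% higher in astrocytes. *C1qa*, a chain of the first complement component, had 59.7, 93.4 and 137 counts in astrocytes and 9224, 10109 and 9241 in microglia. It was high in all microglia libraries, with a log2 fold change of 6.69. *Tnf*, an inflammatory cytokine, had 9.32, 24.4 and 25.1 against 269, 239 and 257, called at 3.75. *Il1a*, an interleukin released by activated microglia, had 59.7, 81.8 and 125 in astrocytes and 166, 130.1 and 186 in microglia. It was not called, at 0.90 ± 0.25 and adjusted p = 6.5e-03. *Il1b* had 74.6, 122 and 152 against 217, 160.3 and 205 and was not called either. The quiescent groups of these interleukins were close together, whereas WT microglia treated with LPS had a mean of 29509 for *Il1a* and 32439 for *Il1b* on the scale of all 21 libraries.

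Receptors for these factors were spread over the cell types. *Tnfrsf1a*, a receptor of tumor necrosis factor, had 358, 389.6 and 433 in astrocytes and 945, 994 and 983 in microglia, called at 1.31, a call that total count scaling ended. *Il1r1*, the signalling receptor of interleukin 1, had 18.6, 20.2 and 28.1 against 8.49, 13.9 and 3.36 and was not called (log2 fold change -1.43, adjusted p = 1.5e-02). *Megf10*, a receptor by which astrocytes engulf synapses, had 282, 359.9 and 363 in astrocytes and 8.49, 11.6 and 12.6 in microglia. It was the one gene of the list called higher in astrocytes, at -4.83. *Lrp1*, a scavenger receptor, had 2179.7, 2353 and 2533 against 24663, 23536 and 24714, called at 3.37, and was clear in both cell types.

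Complement genes that could be tested were mostly higher in microglia. Of 18 complement genes 9 were tested and 9 did not overlap, with 7 called higher in microglia, 1 higher in astrocytes and a median log2 fold change of 5.55. Among all genes tested, 81.4% did not overlap, 22.5% were called higher in microglia and 24.8% higher in astrocytes. *C3ar1*, the receptor of a fragment of C3, had 42.9, 84.9 and 105 counts in astrocytes and 5937, 6833 and 6147 in microglia. *C5ar1*, the receptor of a fragment of C5, had 28.0, 51.0 and 40.5 against 3682, 4122 and 3745. Both were high in microglia only, at log2 fold changes of 6.42 and 6.60. *C4b*, a component of the classical cascade, had 57.8, 95.6 and 175 in astrocytes and 5.66, 0 and 1.68 in microglia. It was called higher in astrocytes at -5.26, but only its astrocyte values brought it over the limit for testing.

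Sensors of bacteria and viruses, interferon-stimulated genes and antigen presentation genes were higher in microglia as lists. For comparison, 22.5% of all genes tested were called higher in microglia, 24.8% higher in astrocytes, and 81.4% did not overlap. All 16 LPS and pattern receptor genes were tested, 15 were called higher in microglia and 15 did not overlap, with a median log2 fold change of 3.81. *Cd14*, which hands LPS to its receptor, had 106, 139 and 182 counts in astrocytes and 5769, 5506 and 5736 in microglia. *Tlr4*, that receptor, had 16.8, 25.5 and 29.5 against 264, 260.2 and 278. Both were high in all microglia libraries, at 5.34 and 3.46, and their astrocyte means were 2.51% and 8.94% of the microglia means. *Nod1*, an intracellular sensor of peptidoglycan, was low, overlapped and was not called, at 16.8, 6.37 and 11.0 against 16.4, 23.2 and 19.3. Of 19 interferon-stimulated genes 17 were tested, 13 called higher in microglia, 1 higher in astrocytes and 16 without overlap, with a median of 2.80. *Gbp3*, a GTPase induced by interferon, had 117, 149 and 121 counts in astrocytes and 46.4, 53.4 and 35.3 in microglia. It was the one gene of that list called higher in astrocytes, at -1.51.

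Of 15 genes of the class I and class II major histocompatibility complex, which presents peptides to T cells, 14 were tested. All 14 were called higher in microglia without overlap, beside 22.5% called so and 81.4% without overlap over all genes tested. Their median log2 fold change was 4.35. *B2m*, the light chain shared by class I molecules, had 576, 758 and 770.0 counts in astrocytes and 12977, 13162 and 13322 in microglia. *H2-D1*, a class I heavy chain, had 114, 149.7 and 189.5 against 3388, 3443 and 3524. Each was high in every microglia library and at 5.33% and 4.37% of that mean in astrocytes, above the share of most microglia markers. *Ciita*, the switch for class II genes, was too low to test, at 1.86, 0 and 0.879 in astrocytes and 7.36, 2.32 and 11.8 in microglia.

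Ligands and receptors that glia exchange were called in both directions. Of 18 ligands 14 were tested, 7 called higher in microglia, 5 higher in astrocytes and 13 without overlap, with a median log2 fold change of 1.38. Over all genes tested, 22.5% were called higher in microglia, 24.8% higher in astrocytes, and 81.4% did not overlap. With total count scaling 15 ligands were tested and their median was -0.08, so the scaling and the genes tested changed together. Of 19 receptors 19 were tested and did not overlap, 13 called higher in microglia and 5 higher in astrocytes, with a median of 3.75. *Cx3cl1*, the fractalkine that binds *Cx3cr1*, had 246, 324 and 451 counts in astrocytes and 29.4, 18.6 and 28.6 in microglia. It was high in the astrocyte libraries, at -3.67, the reverse of its receptor. *Hbegf*, the growth factor added to the astrocyte medium, had 257, 291 and 565 against 35.1, 18.6 and 31.1, and its receptor *Egfr* had 2120.0, 2378 and 2262 against 47.0, 44.1 and 42.8. Ligand and receptor were both called higher in astrocytes, at -3.63 and -5.63. *Pdgfb*, a platelet-derived growth factor chain, had 13.1, 27.6 and 33.4 in astrocytes and 2032, 2098 and 1972 in microglia, called higher in microglia at 6.41.

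Growth factors of the microglia medium also had partners among these genes. *Tgfb1*, which keeps microglia in their resting program, had 42.9, 46.7 and 58.5 counts in astrocytes and 2454, 2846 and 2569 in microglia, called at 5.71. *Tgfb2* had 98.8, 124 and 146 against 15.8, 4.65 and 16.0, called higher in astrocytes at -3.39. *Tgfbr1*, the receptor kinase of both, had 287, 313 and 338 against 6248, 6396 and 6226, called at 4.33. The receptor was thus clear in microglia, and the ligands split between the types. *Csf1*, a ligand of *Csf1r*, was made by both, at 185, 219 and 281 in astrocytes and 152, 153 and 148 in microglia, and was not called (log2 fold change -0.57, adjusted p = 5.3e-03), but was called higher in astrocytes at -1.15 with total count scaling. *Il34*, the other ligand of that receptor and a supplement of the microglia medium, was too low to test at 9.32, 7.43 and 10.1 against 2.83, 2.32 and 5.04. *Igf1*, a growth factor for neurons and oligodendrocytes, had 57.8, 70.1 and 106 in astrocytes and 8438, 8534 and 8336 in microglia. Its log2 fold change of 6.79 was the widest among the ligands tested.

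Genes that handle neurotransmitters and ions were mostly higher in astrocytes. The background over all genes tested was 24.8% called higher in astrocytes, 22.5% higher in microglia and 81.4% without overlap. Of 17 genes 15 were tested, 12 called higher in astrocytes, none higher in microglia and 14 without overlap, with a median log2 fold change of -5.10. *Kcnj10*, the potassium channel Kir4.1, had 2786, 2975 and 3652 counts in astrocytes and 151, 123 and 146 in microglia. It was high in astrocytes, at -4.47. *Slc6a9*, a glycine transporter, had 255, 296 and 365 against 161, 167 and 186, and missed the 2-fold limit at -0.82, though not with total count scaling, at -1.40, or quantile normalization, at -1.02. *Glud1*, glutamate dehydrogenase of mitochondria, overlapped at 1074, 1201 and 1379 in astrocytes and 1313, 1417 and 1328 in microglia, with a log2 fold change of 0.16 that total count scaling turned to -0.42. Together with *Glul*, the 2 enzymes that take glutamate onward stayed within 2-fold between the cell types, while the uptake gene *Slc1a3* was not.

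Matrix genes leaned to astrocytes. Of 16 genes 15 were tested, 11 called higher in astrocytes, 1 higher in microglia and 13 without overlap, with a median log2 fold change of -3.55. The shares over all genes tested were 24.8%, 22.5% and 81.4%, so only the count without overlap was near its share. *Ptprz1*, a phosphatase that carries chondroitin sulfate, had 9459, 10461 and 11830.0 counts in astrocytes and 173, 146 and 159 in microglia. *Ncan*, the proteoglycan neurocan, had 7988, 8806 and 10287 against 208, 169.6 and 207. Each was high in the astrocyte libraries only, at -6.04 and -5.52. *Fn1*, fibronectin, had 397, 495 and 772 in astrocytes and 2407, 2312 and 2542 in microglia, and was the one matrix gene called higher in microglia, at 2.18. *Sparc*, a secreted protein that binds collagen, overlapped, at 1195, 1365 and 2118 in astrocytes and 1655, 1745 and 1609 in microglia, with a log2 fold change of 0.14 that total count scaling turned to -0.44.

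Sterol genes divided by task. Both lists stand beside 24.8% called higher in astrocytes, 22.5% higher in microglia and 81.4% without overlap over all genes tested. All 19 cholesterol synthesis genes were tested, called higher in astrocytes and free of overlap, with a median log2 fold change of -1.89. *Hmgcs1*, the enzyme that makes the first committed intermediate, had 3019, 3701 and 4057 counts in astrocytes and 274, 297 and 286 in microglia. It was high in all astrocyte libraries, at -3.64. The microglia medium alone held added cholesterol, so cell type and medium cannot be told apart for this list. Of 14 sterol efflux and lipid handling genes 13 were tested, 10 called higher in microglia, 2 higher in astrocytes and 12 without overlap, with a median of 2.32. *Abca1*, a pump that loads cholesterol onto lipoproteins, had 1980.2, 2428 and 2383 against 11124, 11233 and 11454. *Abcg1*, a second such pump, had 39.2, 80.7 and 80.5 against 6538, 7521 and 7187. Their log2 fold changes were 2.32 and 6.78. *Apoe*, the main lipoprotein of the brain, had 9699.5, 10144 and 10941 in astrocytes and 17463, 10671 and 16295 in microglia. The groups overlapped, and its log2 fold change of 0.50 was not called and turned to -0.08 under total count scaling. *Fabp7*, a fatty acid binding protein of radial glia, was called higher in astrocytes at -5.46, with 4540.2, 4004 and 3496 against 98.4, 67.4 and 109.

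Lysosomal genes were higher in microglia without exception. All 21 genes were tested, called higher in microglia and free of overlap, with a median log2 fold change of 3.44. Shares over all genes tested were 22.5% called higher in microglia and 81.4% free of overlap. *Ctsb*, cathepsin B, had 1521, 1898 and 2015 counts in astrocytes and 57266, 61090.0 and 59564 in microglia. *Grn*, progranulin, which regulates lysosomes, had 543, 651 and 756 against 13678, 15408 and 14134. Both were high in every microglia library, at 5.04 and 4.48, and their astrocyte means were 3.05% and 4.51% of the microglia means, beside a median of 1.44% for microglia markers.

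Cell cycle genes were higher in the astrocyte libraries. Of 19 genes 19 were tested and free of overlap, 16 were called higher in astrocytes and none in microglia. The median log2 fold change was -1.38. Over all genes tested, 81.4% were free of overlap, 24.8% called higher in astrocytes and 22.5% higher in microglia. *Mki67*, a protein of dividing cells, had 3639.7, 3962 and 4434 counts in astrocytes and 1779, 1296 and 1879 in microglia. *Top2a*, which untangles chromosomes, had 1629.6, 1841 and 2461 against 653, 585 and 727. The astrocyte libraries were high and the microglia libraries lower but far from 0, at -1.29 and -1.58. *Pcna*, the clamp of DNA polymerase, differed least, at 2086, 1767 and 1533 in astrocytes and 1329, 1406 and 1357 in microglia, and was not called (log2 fold change -0.39, adjusted p = 1.1e-02).

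Immediate early genes, which respond within minutes to stimuli and to handling, were split. All 10 were tested, 4 were called higher in microglia, 3 higher in astrocytes and 9 did not overlap, beside 22.5%, 24.8% and 81.4% over all genes tested, with a median log2 fold change of 0.60 that total count scaling turned to 0.02. *Egr1*, a zinc finger factor, had 4076, 4174 and 3160.1 counts in astrocytes and 533, 551 and 567 in microglia, called at -2.78. *Junb*, a part of AP-1, had 59.7, 87.1 and 73.4 against 1593, 1710.0 and 1535, called at 4.45. The first was high in astrocytes and the second in microglia. *Fos*, another part of AP-1, had 80.2, 117 and 93.2 against 184, 179 and 189.8 and just missed the 2-fold limit at 0.94.

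Housekeeping genes were not all level between these cells. Of 12 tested 5 were called higher in microglia, none higher in astrocytes, and 9 did not overlap, so the shares called and not overlapping were near the 47.3% and 81.4% over all genes tested, with a median log2 fold change of 0.64 that quantile normalization turned to -0.00 and total count scaling left at 0.06. *Gusb*, a lysosomal enzyme used as a reference gene, had 190.2, 214 and 234 counts in astrocytes and 3959, 3889 and 3798 in microglia, called at 4.19. *Gapdh*, an enzyme of glycolysis, had 5702, 6038 and 7562 against 17552, 20378 and 18734, called at 1.56, a call that total count scaling ended. *Actb* had 12129, 13642 and 16440.0 against 73543, 84707 and 77249, called at 2.49. These 3 were high in the microglia libraries, but quantile normalization ended the calls of *Gapdh* and *Actb*, at 0.59 and 0.38. *Rplp0*, a ribosomal protein, had 6819, 6249 and 5011 in astrocytes and 6049, 7063 and 6199 in microglia, overlapped, and had a log2 fold change of 0.10 that total count scaling turned to -0.48.

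**Figure D4:**
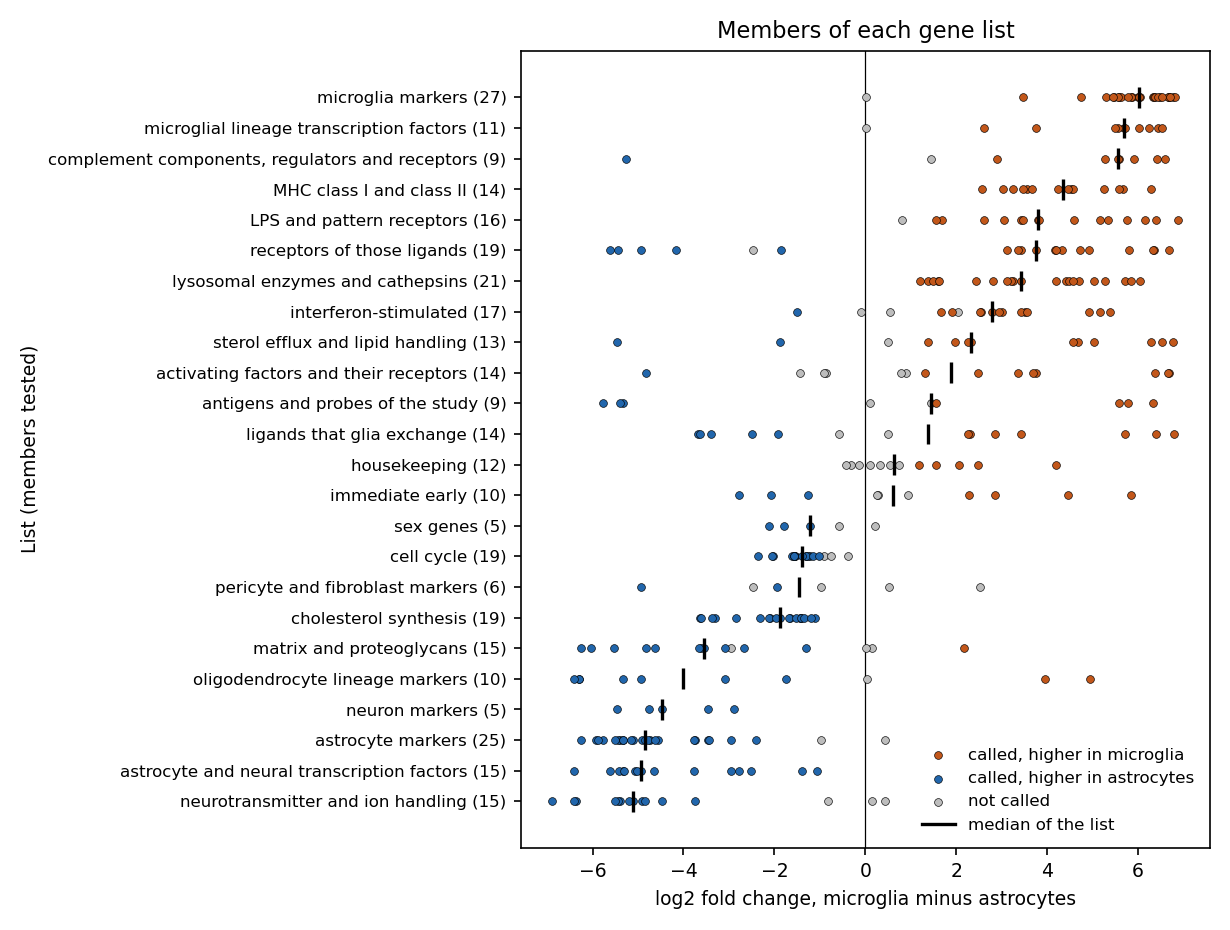
Log2 fold change (microglia minus astrocytes) of the tested genes of 24 lists with at least 5 tested genes, with each gene as a point, the median of a list as a bar and a line at 0. Microglia markers (median 6.03) lie at the top and neurotransmitter genes (-5.10) at the bottom. The ligand median is 1.38 over the 14 genes tested, and -0.08 over the 15 tested under total count scaling.

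Promoters of marker genes were read for 2 short words linked to lineage factors. GAGGAAGT, or ACTTCCTC on the other strand, is a form of the site that PU.1 binds, and TTGGCA, or TGCCAA, is one arm of the palindrome that nuclear factor I proteins bind. The RefSeq promoter table of GRCm38.p6 holds 250 bases before to 50 after each start. Of its 27025 genes, 3.69% have the first word in a promoter and 16.1% the second, in either direction. A gene with several starts was counted once. The table matched 19 of the 28 microglia markers and 22 of the 28 astrocyte markers, too few of each list for a comparison of shares. The first word stands in promoters of 2 of those 19 genes and 0 of those 22. The second stands in promoters of 5 of the 19 and 3 of the 22, so the second is found on both sides. The windows of *Cx3cr1*, *Itgam*, *Aldh1l1* and *Slc1a3* hold neither word. Of the markers that do hold one, the promoters of *C1qc*, a complement chain at chr4:136892865-136893164 on the minus strand, *Ctss*, the protease cathepsin S at chr3:95526536-95526835 on the plus strand, and *Hepacam* at chr9:37367356-37367655 on the plus strand are shown so that the words can be seen in place. Capitals mark the words, which in *C1qc* are one of each kind, in *Ctss* the first and in *Hepacam* the second. A match describes the letters and not the binding of a factor.
C1qc: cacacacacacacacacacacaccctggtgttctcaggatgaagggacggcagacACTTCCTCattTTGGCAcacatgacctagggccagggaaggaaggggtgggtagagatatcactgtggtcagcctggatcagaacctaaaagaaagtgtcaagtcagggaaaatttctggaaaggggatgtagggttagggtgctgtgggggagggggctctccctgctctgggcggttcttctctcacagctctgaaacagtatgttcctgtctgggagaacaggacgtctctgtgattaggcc
Ctss: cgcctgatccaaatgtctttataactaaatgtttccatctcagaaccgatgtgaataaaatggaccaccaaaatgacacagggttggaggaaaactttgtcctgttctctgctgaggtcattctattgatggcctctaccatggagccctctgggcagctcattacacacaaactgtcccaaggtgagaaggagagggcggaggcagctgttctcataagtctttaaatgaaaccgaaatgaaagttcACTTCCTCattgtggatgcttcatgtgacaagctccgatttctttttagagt
Hepacam: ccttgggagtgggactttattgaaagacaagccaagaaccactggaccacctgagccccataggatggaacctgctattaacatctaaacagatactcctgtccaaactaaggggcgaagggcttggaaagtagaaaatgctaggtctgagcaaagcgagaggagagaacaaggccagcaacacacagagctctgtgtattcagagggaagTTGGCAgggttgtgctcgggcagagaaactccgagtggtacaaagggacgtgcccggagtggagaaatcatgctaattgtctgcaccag
*C1qc* had 41.0, 58.4 and 80.5 counts in astrocytes and 5592, 6563 and 5632 in microglia, and *Ctss* had 132, 196 and 244 against 10662, 10685 and 10992. Both were high in microglia alone, at log2 fold changes of 6.65 and 5.86.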

How the data were processed

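For the libraries, which kept strand and were read from both ends, the authors aligned to mm10 (STAR 2.7.3a), quantified genes (RSEM) and normalized in DESeq2. The signal in the deposited tables is thus a normalized count, or reads over a size factor of the library. They also hold log2 fold changes, p-values and other comparison columns by the authors, which were not used. Whole reads were recovered by dividing each column by its smallest value above 0. For 100% of entries the quotient was a whole number, with a largest distance of 8.15e-10 reads before rounding, and tables that share a library gave equal reads. The 6 libraries were joined by gene and rescaled with median-of-ratios size factors. The test was limma 3.58.1 in R 4.3.3 on log2(normalized count + 1) with a trend of variance on level, for genes with a mean of at least 10, with Benjamini-Hochberg adjustment over all of them, and calls at adjusted p under 0.001 and over 2-fold. It was tested on simulated data. With 3 against 3 libraries an exact permutation test cannot go below p = 0.1. On the recovered reads, edgeR 4.0.16 (quasi-likelihood) called 5925 genes and DESeq2 1.42.0 called 5881. In these texts ± after a log2 fold change is the standard error. Reads per kilobase used the joined length of all annotated exons of a gene in GENCODE M21, which also gave positions. Promoters came from RefSeq.

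The alternatives were a pseudocount of 0.5 or 5, no filter, at least 10 in every library, and TMM, total count or quantile scaling. Others were DESeq2, edgeR, limma without a trend, and adjusted p under 0.05 with or without the fold limit. The replicate block, all genes of either table and each library left out were also used. For the shares of markers, the median over the called markers replaced the sum over all 28. Lists of markers and pathways were written from general knowledge. Members and lists were chosen with earlier results of these data known. The rule names the antigens and probes of the study, the called genes with the largest fold changes, those with at most 3 reads in each library of the lower type, the genes highest per kilobase, and in each list the 6 most abundant, those against the list's direction and those not called. Some genes that the rule names are not reported here. *Trem2*, *Siglech*, *Gpr34*, *Ntsr2*, *Cldn10*, *Gfap*, *Aqp4*, *P2ry12*, *Tmem119*, *Gpr17*, *Tlr4* and *Tnf* were named after their values were seen, and so were the promoters printed.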

Additional observations from a re-analysis of the deposited data

How the results depend on the processing

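No gene called in the reported test was called in the opposite direction under another setting. Most settings called 5207 to 6344 genes, against 5702. Exceptions were adjusted p under 0.05 at any fold change, with 9448 (4639 higher in microglia, 4809 higher in astrocytes), and at least 10 counts in every library, which drops genes near 0 in 1 type and left 1702 higher in astrocytes of 3855 called. Total count scaling called 4527 higher in astrocytes and 1817 higher in microglia, with its shift of the median of -0.58. With the replicate block 5768 genes were called, 5669 of them the same. Replicate numbers do not pair across cell types by label, and their correlations were 0.0117, 0.00591 and 0.00401.

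The microglia-marker share in astrocytes, 1.90%, became 2.83% with total count scaling. As the median per marker over the 26 called markers alone it was 1.38%, so the measure and the genes changed together. The astrocyte-marker share in microglia, 14.1%, became 13.7% with TMM and 9.43% with total count scaling. As the median per marker over the 23 called markers alone, which leaves out *Glul*, it was 2.75%. The share by the sum was 13.1%, 13.8% and 15.2% without astrocyte replicate 1, 2 or 3, and 14.8% and 14.4% without microglia replicate 2 or 3. The cause was not tested.

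Of 96 called genes named, 90 kept their call wherever tested. *Gapdh* and *Tnfrsf1a* lost it with total count and quantile scaling, *Actb* and *Tubb3* with quantile scaling, *Xist* in limma without a trend and without astrocyte or microglia replicate 2, and *Siglech* in several settings. Of 18 tested genes named and not called, 11 were called with the same sign in at least 1 setting, 5 of them only where the limit was an adjusted p under 0.05. *C3* was called with DESeq2 (1.52), edgeR (1.53), a pseudocount of 5, at least 10 in every library, quantile scaling, the block and without microglia replicate 2, and *Ndrg2* with TMM, total count and quantile scaling and without 1 of 3 libraries. *Csf1* (-1.15) and *Slc6a9* (-1.40) were called with total count scaling, *Slc6a9* also with quantile scaling (-1.02), *Fos* without astrocyte or microglia replicate 2, and *Il1a* (1.17) without astrocyte replicate 3. *Eef1a1* passed both limits with quantile scaling, in the opposite direction. Uncalled genes that changed sign were 8. With total count and quantile scaling the log2 fold change was -0.084 and -0.65 for *Apoe*, -0.27 and -1.76 for *Eef1a1*, -0.42 and -0.40 for *Glud1*, -0.15 and -0.27 for *Glul*, -0.48 and -0.81 for *Rplp0*, -0.57 and -0.48 for *Sall1*, and -0.44 and -0.46 for *Sparc*. *Sall1* was also at -0.035 with TMM, at -0.050 and -0.029 without astrocyte replicate 1 or 2, and at 0.113 without microglia replicate 2. *Sparc* was at -0.051 and 0.384 without astrocyte replicate 1 or 3, and *Rplp0* at 0.175 and -0.025 without the same 2. *Ddx3y* was at -0.36 with total count scaling. The cause was not tested. Depth limits genes with few reads most in the libraries of 2016139 and 2550560 reads.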

Other observations

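Each library held reads both of *Xist* and of Y-linked genes. Of 5 such genes, all tested, 3 were called higher in astrocytes and 4 did not overlap, beside 24.8% and 81.4% over all genes tested, with a median log2 fold change of -1.21. *Xist*, the RNA that silences an X chromosome in female cells, had 3302, 2539.6 and 1069.5 counts in astrocyte replicates 1, 2 and 3 and 556, 390.3 and 506 in the microglia replicates. *Ddx3y*, a Y-linked helicase made in male cells, had 104, 127 and 117 against 132, 130.1 and 143. *Kdm5d*, a Y-linked demethylase, had 164, 184 and 145 against 55.4, 37.2 and 50.4. The astrocyte libraries varied most in *Xist* and the microglia libraries stood below them, while *Ddx3y* was nearly level. *Xist* was called at -2.12, a call lost in limma without a trend and without replicate 2 of either type, and *Kdm5d* at -1.78, and *Ddx3y* was not called, at 0.22, which total count scaling turned to -0.36.

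Genes higher in astrocytes spanned more of the genome, a property looked at after the values were seen. Their median span from start to end was 31.9 kb, against 25.9 kb for genes higher in microglia, 23.1 kb for genes not called and 25.5 kb for all genes tested. Spans over 100 kb were found in 24.6% of the genes higher in astrocytes, 13.8% of those higher in microglia and 10.5% of those not called.

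Ribosomal protein genes took up 5.08%, 4.32% and 3.25% of the reads in astrocyte replicates 1, 2 and 3 and 2.72%, 2.93% and 2.73% in the microglia replicates. A read was seen for 14288, 14871 and 15570 genes in the astrocyte libraries and for 14413, 12876 and 13976 in the microglia libraries, which follows depth within each type.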
